A study of Mus musculus with 30 samples.

Results

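The transcription factors of the cortical projection neuron lineage described here are encoded by 7 genes: Neurog2, Eomes, Neurod1, Neurod2, Neurod6, Tbr1 and Fezf2. They were chosen by gene symbol, with earlier results of these data known. Of the 22690 probe sets of the Affymetrix Mouse Genome 430A 2.0 array, 9 carry 1 of these 7 symbols. In all, 12394 genes had a probe set with a single symbol. Telencephalon, the embryonic forebrain region that forms cortex and basal ganglia, was taken at embryonic day 12.5 from embryos of Xbp1 +/- parents. Tissue of 4 Xbp1 +/+ embryos (wild type, WT) was pooled, and so was tissue of 6 Xbp1 -/- embryos (knockout, KO). Each pool was plated into 15 dishes and kept in serum-free medium. On day 3 in culture, 10 dishes of each genotype received 100 ng/ml BDNF, a neurotrophin whose receptor is TrkB. The 6 groups were WT basal, WT with 24 h of BDNF, WT with 48 h of BDNF, and the same conditions in KO, with 5 dishes in each and 1 array per dish. Basal and 24 h dishes were lysed on day 4 and 48 h dishes on day 5, so that BDNF and age of the culture cannot be told apart at 48 h.

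Projection neurons are the glutamatergic neurons of the cortex that send axons to distant targets, within the cortex or below it. Their progenitors in the dorsal telencephalon express Neurog2, a proneural factor of the basic helix-loop-helix (bHLH) family, which starts neuronal differentiation. The T-box factor Eomes (Tbr2) marks the intermediate progenitors that follow, and the bHLH factors Neurod1, Neurod2 and Neurod6 act in newborn and maturing neurons. The T-box factor Tbr1 is a factor of early-born deep-layer neurons, and the zinc finger factor Fezf2 specifies neurons that project below the cortex. GABAergic interneurons and striatal neurons come from the ventral telencephalon and depend on other factors, among them the Dlx genes.

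All values below are log2 signals of a probe set relative to the median signal of its array, and differences are log2 differences ± SE from limma. A gene is said to have risen or fallen where its p-value, adjusted by the Benjamini-Hochberg method over the 7436 genes tested, was under 0.05. Signals of different genes cannot be ranked against each other on this scale, because probe sets differ in brightness. The array medians before scaling ranged from 81.9 to 138 intensity units. The Gapdh 3'/5' signal ratio, which reflects RNA integrity and labelling, was 2.72 to 2.94 in WT basal, 2.57 to 2.84 in KO basal, 2.40 to 2.62 in WT 48 h and 2.17 to 2.68 in KO 48 h dishes. Xbp1 transcript was not lower in the arrays labelled KO: its brightest probe set read 4.43 ± 0.044 in WT basal and 4.65 ± 0.073 in KO basal dishes (SD, n = 5), and the KO value was higher by 0.22 (adjusted p = 0.00498). At 24 h and 48 h it was higher by 0.075 and 0.10, which was not called (adjusted p = 0.37 and 0.233). Another of its 4 probe sets read 1.52 to 1.96 in WT basal and 2.75 to 2.88 in KO basal dishes, without overlap. The remaining probe sets overlapped. The brighter of them read 3.59 to 4.03 in WT basal and 3.87 to 4.17 in KO basal dishes, the dimmer -0.76 to -0.082 and -1.02 to 0.11. Which exons the knockout allele lacks is not given in the labels, and a probe set outside the deleted part cannot check the genotype. Because each genotype came from 1 pool, p-values here describe variation among dishes and not among embryos. In such bulk samples fewer cells of a type and less RNA per cell cannot be told apart.

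Because the 7 genes differed between the genotypes in the same direction, the 250 bases before the annotated start were searched in each for the E-box CANNTG, the motif of bHLH factors, and for GGTGTGA, the core letters of T-box sites, on both strands. The E-box reads as CANNTG on either strand, and its forms CAGATG and CAGCTG are subsets of it. The windows of Eomes and of the NeuroD genes are shown, since Neurog2 is known to act upstream of these genes and these 4 starts lie at the outer end of their gene. Letters are RefSeq sequence of mouse assembly GRCm38.p6, 5′ to 3′ on the strand of the gene, and capitals mark CANNTG.
Eomes, chr9:118477939-118478188, plus strand: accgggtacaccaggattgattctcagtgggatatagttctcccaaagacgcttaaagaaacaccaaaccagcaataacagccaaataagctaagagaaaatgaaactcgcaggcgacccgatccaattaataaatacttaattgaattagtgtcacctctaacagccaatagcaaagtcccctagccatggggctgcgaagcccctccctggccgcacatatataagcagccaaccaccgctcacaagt
Neurod1, chr2:79456637-79456886, minus strand: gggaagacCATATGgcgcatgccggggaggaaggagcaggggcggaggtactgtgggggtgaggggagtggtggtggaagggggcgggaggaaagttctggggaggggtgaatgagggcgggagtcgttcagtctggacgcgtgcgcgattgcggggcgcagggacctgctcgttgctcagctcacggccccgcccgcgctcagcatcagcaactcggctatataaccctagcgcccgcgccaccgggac
Neurod2, chr11:98329646-98329895, minus strand: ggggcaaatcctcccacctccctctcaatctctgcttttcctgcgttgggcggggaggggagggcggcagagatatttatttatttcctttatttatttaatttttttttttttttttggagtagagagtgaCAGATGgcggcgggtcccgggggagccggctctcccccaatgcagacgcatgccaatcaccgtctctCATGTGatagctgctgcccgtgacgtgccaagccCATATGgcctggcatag
Neurod6, chr6:55681264-55681513, minus strand: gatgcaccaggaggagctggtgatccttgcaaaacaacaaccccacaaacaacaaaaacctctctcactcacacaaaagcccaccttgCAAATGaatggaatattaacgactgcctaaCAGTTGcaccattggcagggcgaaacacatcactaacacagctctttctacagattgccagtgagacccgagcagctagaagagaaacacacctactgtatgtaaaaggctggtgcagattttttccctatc
The Neurod2 window held 3 E-boxes, the Neurod6 window 2, and the Neurod1 and Tbr1 windows 1 each. The windows of Eomes, Neurog2 and Fezf2 held 0. Thus 4 of 7 windows held CANNTG, against 66.2% of all 32851 promoter windows of this length. The windows of Neurog2, Tbr1 and Fezf2 lie inside the span of their gene, before an annotated start that is not at its outer end. The Neurod2 window was the only one of the 7 with CAGATG, which begins 118 bases before the start, and CAGCTG was in 0 of 7. Either of the pair was in 25.5% of all windows. GGTGTGA was in 0 of 7 windows and in 3.33% of all windows. These are matches of letters, not binding sites.

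All 7 genes were lower in KO than in WT dishes, without BDNF and after 24 h and 48 h with it. In basal dishes the fold ranged from 1.75 for Neurog2 to 2.78 for Fezf2. At each of the 3 times all 7 passed the test, with adjusted p from 2.75e-12 to 0.000743 in basal dishes, from 1.95e-12 to 0.0103 at 24 h and from 2.7e-11 to 0.000343 at 48 h. The median difference of the 7 genes was -1.09 in basal dishes, -1.22 at 24 h and -1.18 at 48 h, against -0.091, -0.095 and -0.073 over all tested genes. Of all tested genes 18.7% fell in KO in basal dishes, 17.8% at 24 h and 14.4% at 48 h, while 9.2%, 8.43% and 9.68% rose. Lower genes made up 67% of all genes called in basal dishes, a share of 53.3% after quantile normalization, 53.7% after scaling to the 75th percentile and 26.5% with signals as deposited. At 24 h the same shares were 67.8%, 48.6%, 52.6% and 16.6%, and at 48 h they were 59.8%, 46.9%, 50.2% and 34.5%. Counted from the most negative difference of the 7436 genes, the 7 lay within the first 66 places in basal dishes, the first 54 at 24 h and the first 126 at 48 h. These places are a description, since the 7 were chosen with earlier results of these data known. The 5 WT and 5 KO dishes did not overlap for any of the 7 genes at any time. Without overlap in either direction were also 1407 tested genes in basal dishes, 1313 at 24 h and 1241 at 48 h, the 7 included.

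**Figure D1:**
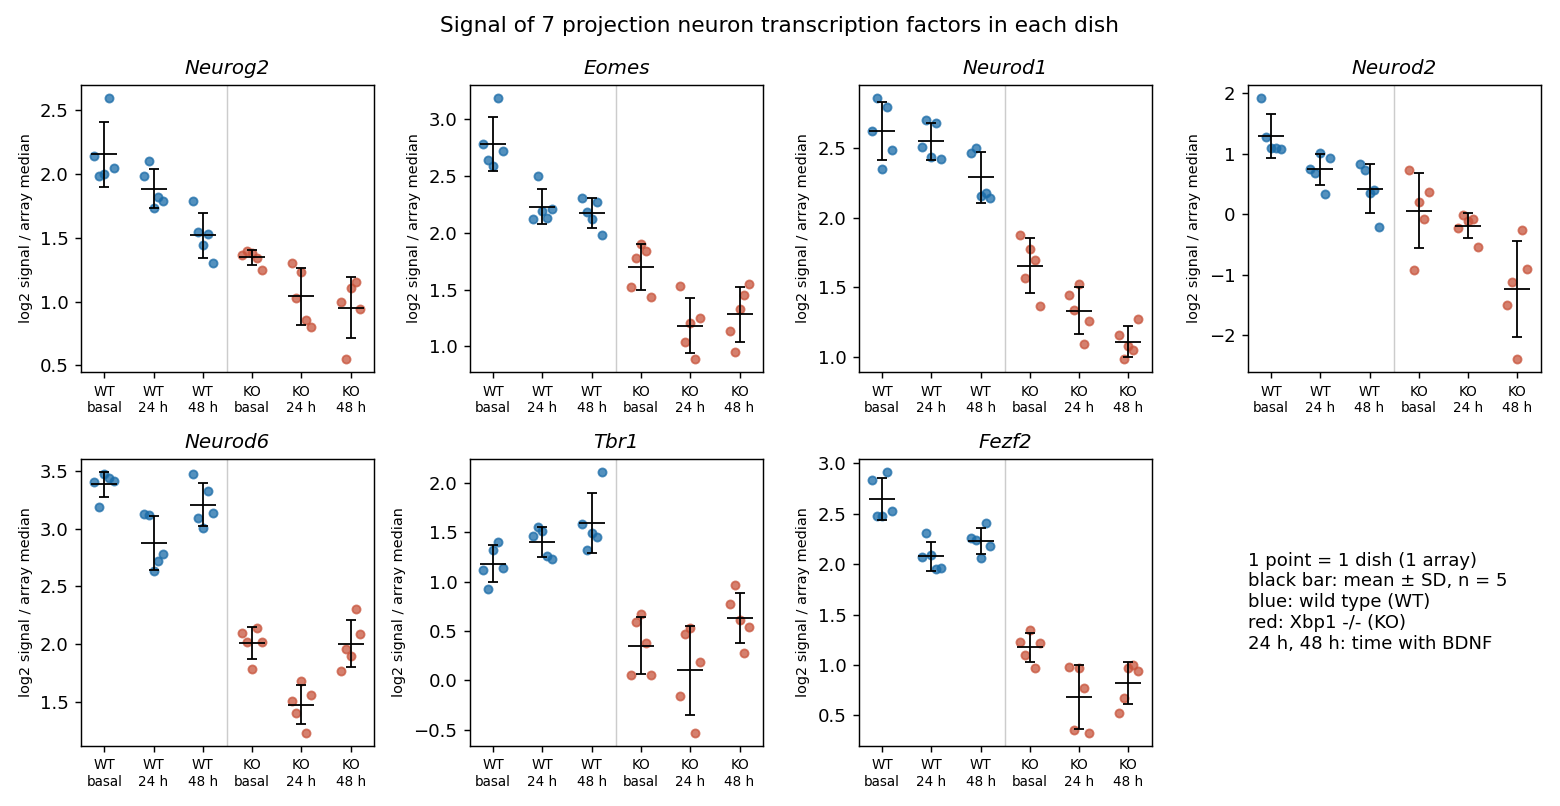
Log2 signal relative to the array median (vertical axis, a separate scale for each gene) of the 7 genes in each dish of the 6 groups, with mean ± SD (n = 5). At each time, the 5 KO dishes (red) lie below the 5 WT dishes (blue) for every gene, and Tbr1 is the one gene whose highest group mean is WT at 48 h.

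Neurog2 stands at the start of the lineage. In dish order its WT basal values were 2.14, 1.98, 2.00, 2.59 and 2.04 and its KO basal values were 1.36, 1.40, 1.38, 1.34 and 1.25. The lowest WT dish lay above the highest KO dish, and the KO dishes were closer together than the WT dishes. At 24 h the WT values were 1.98, 2.10, 1.73, 1.82 and 1.78 and the KO values 1.30, 1.03, 1.23, 0.85 and 0.80. At 48 h they were 1.79, 1.54, 1.44, 1.53 and 1.30 in WT and 0.997, 0.55, 1.10, 1.15 and 0.94 in KO. The difference KO minus WT was -0.81 ± 0.12 in basal dishes (adjusted p = 1.85e-06), -0.84 ± 0.12 at 24 h (adjusted p = 1e-06) and -0.57 ± 0.12 at 48 h (adjusted p = 0.000343). The call at 48 h was lost when only dishes 3 to 5 of the 48 h groups were used (-0.36, adjusted p = 0.0779). Neurog2 lies on chromosome 3 at 127632733 to 127635636 (GRCm38.p6).

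Eomes, the marker of intermediate progenitors, has a pair of probe sets, of which the brighter was tested. It read 2.78, 2.64, 2.59, 3.18 and 2.72 in WT basal dishes and 1.53, 1.78, 1.90, 1.84 and 1.44 in KO basal dishes. At 24 h it read 2.12, 2.50, 2.19, 2.13 and 2.21 in WT and 1.53, 1.04, 1.21, 0.89 and 1.25 in KO. At 48 h it read 2.31, 2.18, 2.12, 2.27 and 1.98 in WT and 1.13, 0.95, 1.33, 1.45 and 1.55 in KO. Every one of the 15 WT arrays was above every one of the 15 KO arrays, with a lowest WT value of 1.98 and a highest KO value of 1.90. The difference was -1.09 ± 0.12 in basal dishes, -1.05 ± 0.12 at 24 h and -0.89 ± 0.12 at 48 h, with adjusted p of 1.03e-08, 2.58e-08 and 5.05e-07. The gene lies on chromosome 9 at 118478186 to 118486132.

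The dimmer Eomes probe set differed by -0.76 in basal dishes, -0.70 at 24 h and -0.68 at 48 h. Exact permutation tests, two-sided over 5 against 5 dishes, gave p = 0.00794, the smallest these dishes allow, at the first 2 times and p = 0.0159 at 48 h, when the genotypes overlapped. These are among 18 such tests on second probe sets, with unadjusted p. Against basal dishes it differed at 48 h by -0.65 in WT and -0.57 in KO (exact permutation p = 0.00794 each) and at 24 h by -0.33 and -0.26 (p = 0.0794 and 0.0635).

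The NeuroD genes act downstream in newborn neurons. Neurod1, by the brighter of its 2 probe sets, read 2.63, 2.86, 2.35, 2.79 and 2.48 in WT basal dishes and 1.87, 1.56, 1.78, 1.70 and 1.36 in KO basal dishes. At 24 h it read 2.51, 2.70, 2.43, 2.68 and 2.42 in WT and 1.44, 1.34, 1.53, 1.10 and 1.26 in KO, and at 48 h it read 2.47, 2.50, 2.16, 2.18 and 2.14 in WT and 1.16, 0.99, 1.08, 1.05 and 1.28 in KO. The lowest of all WT values, 2.14, was above the highest of all KO values, 1.87. The difference was -0.97 ± 0.10 in basal dishes, -1.22 ± 0.10 at 24 h and -1.18 ± 0.10 at 48 h, with adjusted p of 4.4e-09, 3.24e-11 and 4.71e-11. The other probe set differed by -1.31, -1.30 and -1.18 at the 3 times, each without overlap and with an exact permutation p of 0.00794. For its differences between basal and 48 h dishes, -0.24 in WT and -0.11 in KO, the exact permutation p was 0.167 and 0.333, so the calls for Neurod1 with BDNF rest on the brighter probe set. Neurod1 lies on chromosome 2 at 79452637 to 79456636.

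Neurod2, which acts in maturing neurons, was the most variable of the 7 genes and had the largest SE. Its WT basal values were 1.92, 1.28, 1.09, 1.09 and 1.08 and its KO basal values 0.73, -0.92, 0.20, -0.080 and 0.36. At 24 h it read 0.75, 0.67, 1.01, 0.34 and 0.93 in WT and -0.23, -0.0064, -0.12, -0.077 and -0.54 in KO. At 48 h it read 0.83, 0.72, 0.35, 0.41 and -0.21 in WT and -1.50, -1.13, -2.40, -0.27 and -0.90 in KO. All 5 KO dishes at 24 h and all 5 at 48 h were thus below the array median. Genotypes did not overlap within a time, but the KO basal dishes with 0.73 and 0.36 were brighter than several WT dishes of later times. Other KO basal and 24 h dishes were also above WT 48 h dish 5 (-0.21). The difference was -1.23 ± 0.27 in basal dishes, -0.93 ± 0.27 at 24 h and -1.66 ± 0.27 at 48 h, with adjusted p of 0.000743, 0.0103 and 1.32e-05. Over the alternative fits the 48 h difference ranged from -2.09 to -0.96. Its size is uncertain, because it rests on KO signals as low as 0.19 of the array median. Neurod2 lies on chromosome 11 at 98325415 to 98329645.

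Neurod6, a factor of postmitotic pyramidal neurons, had narrow groups. It read 3.40, 3.19, 3.47, 3.44 and 3.41 in WT basal dishes and 2.09, 2.02, 1.78, 2.14 and 2.02 in KO basal dishes. At 24 h it read 3.13, 3.12, 2.63, 2.72 and 2.78 in WT and 1.51, 1.40, 1.68, 1.23 and 1.55 in KO. At 48 h it read 3.47, 3.09, 3.01, 3.33 and 3.14 in WT and 1.76, 1.96, 1.90, 2.31 and 2.09 in KO. All WT arrays were above all KO arrays, with 2.63 as the lowest WT value and 2.31 as the highest KO value. The difference was -1.38 ± 0.11 in basal dishes, which is 2.60-fold lower (95% interval 2.23 to 3.02), -1.40 ± 0.11 at 24 h and -1.21 ± 0.11 at 48 h. The adjusted p was 2.75e-12, 1.95e-12 and 5.27e-11. Neurod6 lies on chromosome 6 at 55677818 to 55681263.

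Tbr1, the deep-layer factor, read 1.11, 0.93, 1.32, 1.40 and 1.14 in WT basal dishes and 0.059, 0.59, 0.67, 0.38 and 0.058 in KO basal dishes. At 24 h it read 1.46, 1.55, 1.51, 1.25 and 1.23 in WT and -0.16, 0.47, 0.53, -0.53 and 0.19 in KO. At 48 h it read 1.58, 1.32, 1.49, 1.45 and 2.11 in WT and 0.77, 0.97, 0.61, 0.28 and 0.54 in KO. Within a time the genotypes did not overlap, while the highest KO value (0.97, at 48 h) was just above the lowest WT value (0.93, basal). The difference was -0.83 ± 0.17 in basal dishes, -1.30 ± 0.17 at 24 h and -0.96 ± 0.17 at 48 h, with adjusted p of 0.000244, 2.03e-07 and 3.18e-05. The call at 48 h was lost when only dishes 1 and 2 of the 48 h groups were used (-0.58, adjusted p = 0.14). Tbr1 lies on chromosome 2 at 61802863 to 61814114.

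Fezf2, the factor of subcortically projecting neurons, had the largest difference of the 7 in basal dishes. It read 2.83, 2.48, 2.48, 2.92 and 2.53 in WT basal dishes and 1.23, 1.10, 1.35, 0.97 and 1.22 in KO basal dishes. At 24 h it read 2.07, 2.31, 2.09, 1.95 and 1.96 in WT and 0.98, 0.36, 0.97, 0.77 and 0.33 in KO. At 48 h it read 2.26, 2.24, 2.06, 2.41 and 2.18 in WT and 0.53, 0.67, 0.97, 0.998 and 0.94 in KO. The lowest of all WT values was 1.95 and the highest of all KO values 1.35. The difference was -1.47 ± 0.12 in basal dishes, 2.78-fold lower (95% interval 2.34 to 3.29), -1.40 ± 0.12 at 24 h and -1.41 ± 0.12 at 48 h. The adjusted p was 1.02e-11, 4.6e-11 and 2.7e-11. Fezf2 lies on chromosome 14 at 12338992 to 12346803.

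Eomes, Neurod1, Neurod6 and Fezf2 were thus the 4 genes whose WT arrays all lay above all KO arrays by the brightest probe set. This was not so for the dimmer Eomes probe set, whose lowest WT value was 0.34 and highest KO value 0.78. The same held for 87 of the tested genes, or 1.17%, these 4 included.

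**Figure D2:**
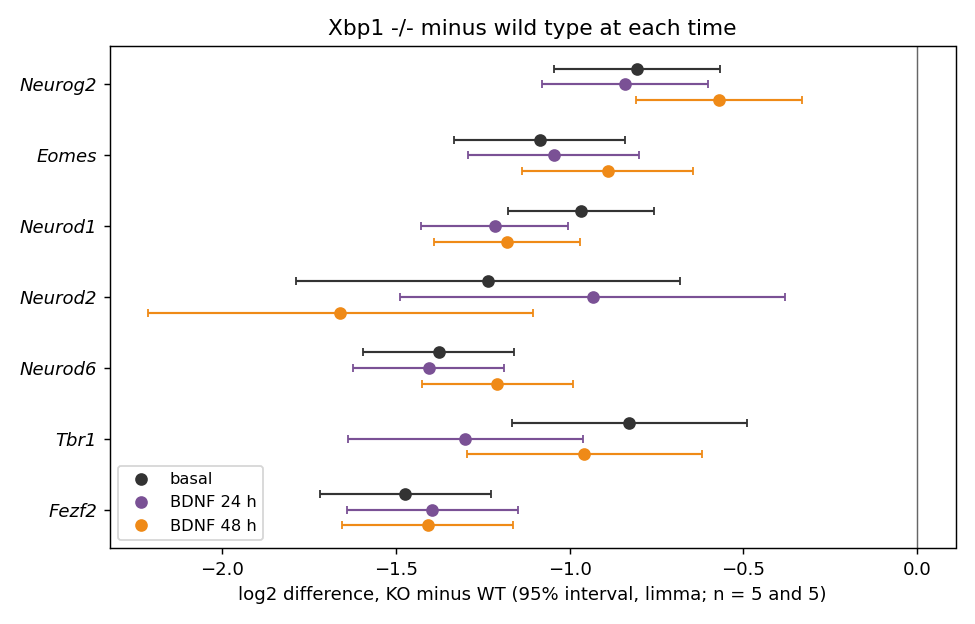
Log2 difference KO minus WT (horizontal axis) for each of the 7 genes in basal dishes and after 24 h and 48 h of BDNF, with the 95% interval from limma (5 dishes against 5). All 21 intervals lie below 0, and the differences range from -1.66 (Neurod2 at 48 h) to -0.57 (Neurog2 at 48 h).

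Genes of the same lineage outside the 7 were mixed. Of 16 tested factors of cortical layers, 8 fell in KO basal dishes and 2 rose, with 7 lower and 0 higher at 24 h and 7 lower and 2 higher at 48 h. The largest changes in basal dishes were those of Bcl11b (Ctip2), a factor of subcortical projection neurons, at -1.11 (adjusted p = 3.34e-09), Sox5 at -1.05, Mef2c at -1.01 and Nfib at -0.94. The list's median was -0.25. Of 15 tested genes of newborn projection neurons and intermediate progenitors, 7 fell and 3 rose in basal dishes, 7 fell and 4 rose at 24 h, and 6 fell and 3 rose at 48 h. Reln, which encodes the Cajal-Retzius cell protein reelin, fell by 0.95 and Mfng, a Notch modifier, by 0.77, while the cell cycle inhibitor gene Cdkn1c rose by 0.99 and Mfap4 by 0.94. Slc17a6, the vesicular glutamate transporter VGLUT2, was higher in KO basal dishes, by 0.42 (adjusted p = 0.00112).

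Factors upstream of the lineage and partners of its bHLH proteins were tested in the same way. Of 7 tested dorsal patterning and progenitor factors, 5 fell and 1 rose in basal dishes, 6 fell and 1 rose at 24 h, and 5 fell and 1 rose at 48 h. Lhx2, a selector gene of cortex, fell by 1.22 (adjusted p = 1.2e-11), and its values ranged from 2.21 to 2.68 in WT basal and from 0.998 to 1.24 in KO basal dishes. The Notch effector Hes5 fell by 0.62 and Sox2 by 0.55 in basal dishes. Hes1 was the 1 factor that rose at each time, by 0.41 in basal dishes (adjusted p = 0.0154). Pax6, which acts upstream of Neurog2, had a difference of -0.33 that was not called in basal dishes (adjusted p = 0.099). It was called lower in KO at 24 h (-0.59, adjusted p = 0.00397) and at 48 h (-0.43, adjusted p = 0.0371). Of 10 tested bHLH partners and inhibitors, 3 rose and 2 fell in basal dishes, 3 rose and 3 fell at 24 h, and 3 rose and 4 fell at 48 h. Id3 and Id1, which encode inhibitors that bind bHLH partners and block DNA binding, rose by 1.42 and 0.54 in basal dishes, whereas Tcf4, a bHLH partner, fell by 0.85 and Hes6 by 0.42.

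Markers of other cells and regions differed between the pools as well. Of 9 tested genes of the GABAergic lineage, 6 fell in KO basal dishes, 7 at 24 h and 7 at 48 h, with 0, 0 and 1 higher. Lhx6 differed by -0.95, Dlx2 by -0.91, Dlx5 by -0.88 and Isl1 by -0.76 in basal dishes, and the list's median was -0.66. Of 9 tested pan-neuronal genes, 0 were called in basal dishes with a median of 0.0025, 2 fell at 24 h and 4 at 48 h. Of 8 radial glia and progenitor genes, 5 fell and 1 rose in basal dishes, 4 fell and 1 rose at 24 h, and 2 fell and 2 rose at 48 h. Of 14 cell cycle genes, 3 fell in basal dishes and 3 at 24 h, while 2 rose at 48 h. The 3 of 14 cell cycle genes in basal dishes are a share near the 18.7% of all tested genes that fell.

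All 5 tested vascular and meningeal genes rose in KO at each time, with Dcn at 1.41, Pdgfrb at 1.14, Col3a1 at 0.97 and Col1a2 at 0.87 in basal dishes. The summed signal of the 8 measured genes of that list was 81.9 to 98.6 times the array median in WT basal dishes and 161 to 193 times in KO basal dishes. The endothelial markers Pecam1, Cdh5 and Kdr were below the array median by their median over the arrays of all groups, which does not separate the genotypes. Glial and blood markers moved less uniformly. In basal dishes 1 of 2 tested astrocyte genes rose and 1 fell, 1 of 2 oligodendrocyte genes fell, 1 of 4 microglial genes rose, and 0 of 3 erythroid genes were called. The summed signal of the 6 measured astrocyte genes was 27.7 to 35.4 in WT basal and 45.7 to 51.8 in KO basal dishes. Of these 6, 5 were below the array median by their median over all arrays. The sums of the oligodendrocyte, microglial and erythroid lists overlapped between the genotypes in basal dishes.

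A further pair of lists was written after the first results had been seen. Of 18 midbrain, floor plate and hindbrain factors, 15 were measured and 3 passed the filter on low signals: Foxa1, Gata2 and Th, all higher in KO basal dishes. The filter used the mean over all arrays, and Foxa1 was below the array median on all WT basal arrays, so it passed through its KO signal and the shared direction of the 3 is partly set by the filter. Foxa1, a factor of the floor plate, ranged from -0.80 to -0.08 in WT basal and from 1.68 to 2.21 in KO basal dishes, a difference of 2.52 ± 0.22 (adjusted p = 3.37e-11). The summed signal of the 15 genes was 3.96 to 4.82 in WT basal and 12.6 to 15.3 in KO basal dishes. En1, En2, Foxa2, Lmx1a, Lmx1b and Shh were below the array median by their median over the arrays of all groups. Whether each was below it in WT basal and in KO basal dishes was not tested. Of 7 choroid plexus genes, 5 were measured and 3 tested. Ttr, a transport protein made by choroid plexus, read 7.06 to 7.25 in WT basal and 1.42 to 5.40 in KO basal dishes, and Folr1 1.33 to 1.81 and -1.01 to -0.53. Otx2 was higher in KO by 0.74. The part of these differences in regional and cell type markers in the results for the 7 genes was not tested, and the 1 pool per genotype means that dissection and genotype cannot be told apart.

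**Figure D3:**
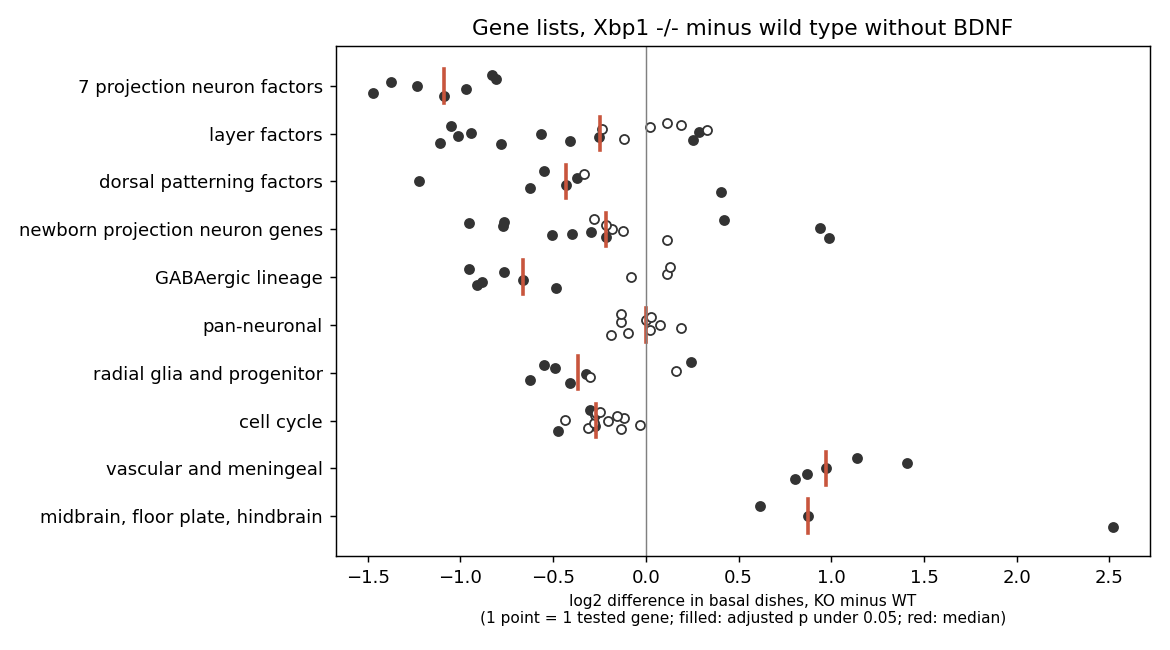
Log2 difference KO minus WT in basal dishes (horizontal axis) for each tested gene of 10 lists, with the list median as a red bar and called genes filled. The 7 projection neuron factors, chosen by name, lie from -1.47 to -0.81, the pan-neuronal genes lie around 0 with none called, and the vascular and meningeal genes lie to the right of 0.

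The design also compared dishes with and without BDNF. In WT dishes, 3 of the 7 genes fell and 0 rose after 24 h, where 6.4% of all tested genes fell and 8.04% rose. Fezf2 fell by 0.57 ± 0.12 (adjusted p = 0.00134), Eomes by 0.55 ± 0.12 (adjusted p = 0.00176) and Neurod6 by 0.51 ± 0.11 (adjusted p = 0.00125), and the 24 h and basal dishes of these 3 genes did not overlap. Over all tested genes, 780 did not overlap between these groups in either direction. Neurod2 differed by -0.55 ± 0.27 without overlap but was not called (adjusted p = 0.174), except in a fit of only the arrays compared (0.0333). Neurog2 (-0.27), Neurod1 (-0.075) and Tbr1 (0.22) were not called either, with adjusted p of 0.122, 0.68 and 0.398.

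After 48 h in WT, 5 of the 7 were lower than in basal dishes and 0 were called higher, where 15.7% of all tested genes fell and 20.5% rose. Neurog2 fell by 0.63 ± 0.12 (adjusted p = 9.52e-05), Eomes by 0.61 ± 0.12 (adjusted p = 0.000215), Neurod2 by 0.87 ± 0.27 (adjusted p = 0.0126), Fezf2 by 0.42 ± 0.12 (adjusted p = 0.00722) and Neurod1 by 0.33 ± 0.10 (adjusted p = 0.012). Tbr1 went the other way, with 0.41 ± 0.17 that just missed the threshold (adjusted p = 0.051). It passed the threshold in 7 of 21 alternative limma fits, whose adjusted p ranged from 0.00152 to 0.626. Among those 7 were the fits without WT basal dish 4 (0.0412) or WT 48 h dish 2 (0.0332). Neurod6 differed by -0.18 ± 0.11 (adjusted p = 0.202). The Neurod2 call was lost without WT basal dish 1 (adjusted p = 0.0504) or without WT 48 h dish 5 (0.0527). With signals as deposited, on which the median of all genes shifted by 0.34, only 1 gene was called, Tbr1, and it was higher.

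In KO dishes 4 of the 7 fell and 0 rose after 24 h, where 5.55% of all tested genes fell and 5.96% rose. Neurod6 fell by 0.54 ± 0.11 (adjusted p = 0.000957), Eomes by 0.51 ± 0.12 (adjusted p = 0.00489), Fezf2 by 0.49 ± 0.12 (adjusted p = 0.00692) and Neurod1 by 0.32 ± 0.10 (adjusted p = 0.038). Only the Neurod6 dishes did not overlap, while 693 of all tested genes did not overlap in this comparison. The Neurod1 call was lost when KO basal dish 1, 3 or 4 or KO 24 h dish 2, 4 or 5 was left out, and Neurog2 (-0.30, adjusted p = 0.0893) was called without KO 24 h dish 1 (0.04). Neurod2 (-0.25) and Tbr1 (-0.25) were not called, with adjusted p of 0.613 and 0.363. With signals as deposited 0 of the 7 were called.

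At 48 h in KO, 5 of the 7 were lower than in basal dishes, where 9.47% of all tested genes fell and 19.4% rose. Neurod2 fell by 1.30 ± 0.27 (adjusted p = 0.000544), Neurod1 by 0.55 ± 0.10 (adjusted p = 0.000184), Eomes by 0.41 ± 0.12 (adjusted p = 0.0102), Neurog2 by 0.40 ± 0.12 (adjusted p = 0.0108) and Fezf2 by 0.35 ± 0.12 (adjusted p = 0.0264). For Neurod2 all 5 KO 48 h dishes were below the array median. Neurod6 differed by -0.0077 ± 0.11 and Tbr1 by 0.28 ± 0.17, neither called. The Fezf2 call was lost without KO basal dish 1 or 3 or KO 48 h dish 1 or 2, and the Neurog2 call without KO 48 h dish 2. Without that last dish 3 of the 7 were called. With signals as deposited 3 were called, Neurod1 and Neurod2 lower and Tbr1 higher.

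From 24 h to 48 h the genes parted. In WT, Neurog2 fell by a further 0.36 ± 0.12 (adjusted p = 0.0346) and Neurod6 rose by 0.33 ± 0.11 (adjusted p = 0.0339), where 5.58% of all tested genes fell and 8.32% rose. Each call depended on single dishes. The Neurog2 call was lost without WT 24 h dish 1 or 2 or WT 48 h dish 3, 4 or 5, and the Neurod6 call without WT 24 h dish 3, 4 or 5 or WT 48 h dish 1 or 4. Neurod1 (-0.26, adjusted p = 0.0889) was called without WT 48 h dish 1 (0.0491) or 2 (0.0474).

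In KO over the same interval, Neurod6 rose by 0.53 ± 0.11 (adjusted p = 0.00233) and Tbr1 by 0.53 ± 0.17 (adjusted p = 0.0376), while Neurod2 fell by 1.04 ± 0.27 (adjusted p = 0.0148). Of all tested genes 7.49% rose and 2.35% fell. The Neurod2 call was lost without KO 48 h dish 3, whose value was -2.40, and the Tbr1 call without KO 24 h dish 1 or 4 or KO 48 h dish 1, 2, 3 or 5. Without KO 48 h dish 3 the only call left was that of Neurod6. The 48 h comparisons share their 48 h and basal or 24 h dishes with the others, so they are not independent of them. The Gapdh 3'/5' ratio moved with the 48 h dishes. With that ratio as a covariate 0 of the 7 were called between 24 h and 48 h in either genotype, 3 between basal and 48 h in WT, and 4 in KO.

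**Figure D4:**
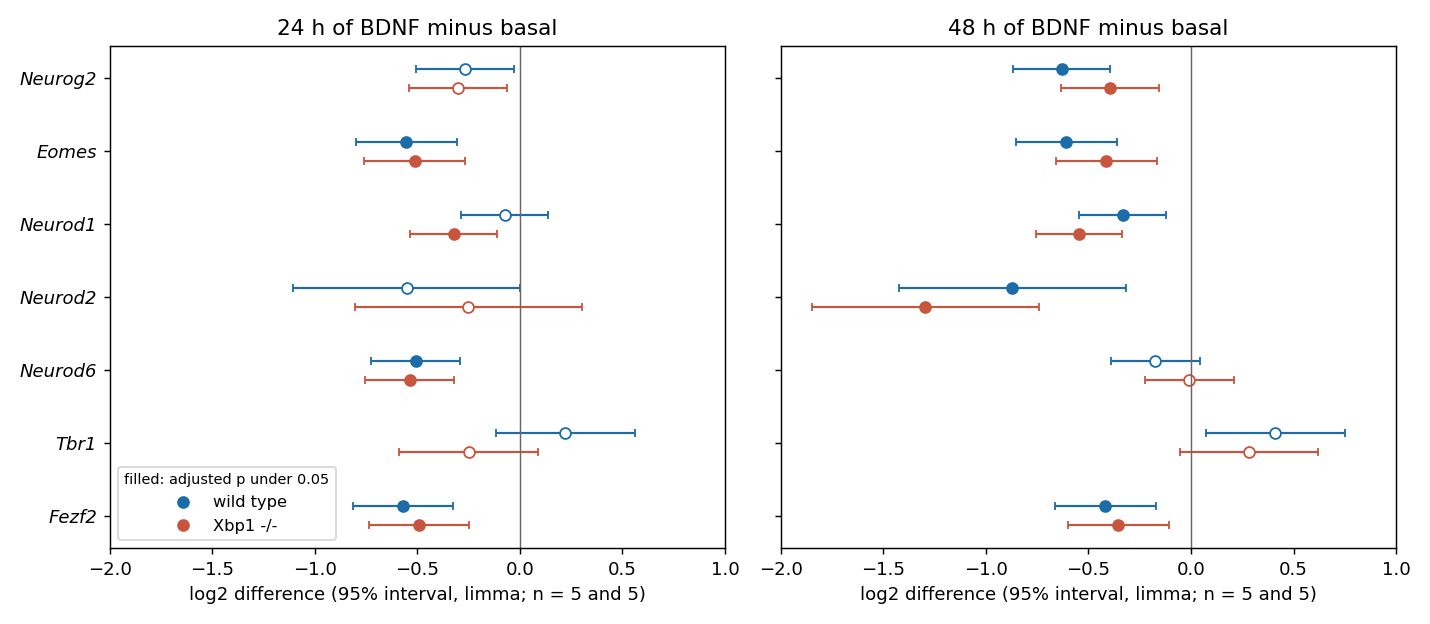
Log2 difference of 24 h (left) or 48 h (right) of BDNF minus basal dishes (horizontal axis) for each of the 7 genes in WT (blue) and KO (red), with the 95% interval from limma and called genes filled. The WT and KO intervals of each gene overlap, and at 48 h Neurod6 and Tbr1 are the genes with open points in both genotypes.

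The responses of WT and KO were compared directly by the difference of their differences. At 24 h 0 of 7 genes were called (limma adjusted p from 0.831 to 1), and 0 had an unadjusted p under 0.05. Of all tested genes 0.0941% were called. At 48 h again 0 of 7 were called (adjusted p from 0.848 to 0.978) and 0 had an unadjusted p under 0.05, against 0.134% of all tested genes. The intervals were wide. For Tbr1 at 24 h, where WT changed by 0.22 and KO by -0.25, the difference in response was -0.47 (95% interval -0.95 to 0.0059). For Neurod2 at 48 h it was -0.42 (-1.21 to 0.36), and for Neurod1 at 48 h -0.21 (-0.51 to 0.086). For Fezf2 it was 0.078 (-0.27 to 0.42) at 24 h and 0.064 (-0.28 to 0.41) at 48 h. Responses that differ by these amounts were therefore not resolved with 5 dishes per group.

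Of all genes called in WT at 48 h, 43.4% were lower, a share of 57.2% after quantile normalization, 60.1% after scaling to the 75th percentile and 2.1% with signals as deposited. In KO at 48 h these shares were 32.8%, 52.3%, 58.5% and 1.21%. At 24 h the share was 44.3% in WT and 48.2% in KO, and 34.1% and 10.1% with signals as deposited.

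The other genes of the lineage were counted in the same comparisons. Of 16 layer factors, 4 fell and 0 rose in WT at 24 h, 7 fell and 0 rose in WT at 48 h, 3 fell in KO at 24 h and 5 in KO at 48 h. Ldb2, a cofactor gene of subcortical projection neurons, fell by 0.62 and 0.95 in WT at 24 h and 48 h and by 0.42 and 0.44 in KO. The 15 genes of newborn neurons and intermediate progenitors went both ways: 1 rose and 3 fell in WT at 24 h, 1 rose and 4 fell in WT at 48 h, 3 rose and 1 fell in KO at 24 h, and 2 rose and 3 fell in KO at 48 h. Among them Slc17a6 rose by 0.86 and 1.04 in WT and by 0.86 and 0.96 in KO, opposite to Eomes and Fezf2. Of 9 pan-neuronal genes, 4 rose in WT at 24 h, 6 in WT at 48 h and 4 in KO at each time, and 0 fell. Of all tested genes 8.04%, 20.5%, 5.96% and 19.4% rose in WT at 24 h and 48 h and in KO at 24 h and 48 h. In the same order 6.4%, 15.7%, 5.55% and 9.47% fell. The neurofilament gene Nefm rose by 1.02 and 1.41 in WT and by 1.14 and 1.45 in KO, and Eno2 by 1.03 and 1.37 in WT and by 0.87 and 1.28 in KO.

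Among the bHLH partners and inhibitors, 2 of 10 fell in WT at 24 h, 6 in WT at 48 h and 3 in KO at each time, and 0 rose. Id3 fell by 1.08 in WT at 48 h and by 0.32 in KO. Of 14 cell cycle genes, 1 fell in WT at 24 h and 9 at 48 h, while in KO 1 fell at 24 h, and 2 fell and 1 rose at 48 h. Radial glia and progenitor genes fell in 3 of 8 cases in WT at each time, in 5 of 8 in KO at 24 h and in 2 of 8 at 48 h. Of 7 dorsal patterning and progenitor factors, 2 fell in WT at each time, 1 in KO at 24 h and 2 in KO at 48 h, and 0 rose. Of 9 genes of the GABAergic lineage, 2 rose and 0 fell in WT at 24 h, 2 rose and 3 fell in WT at 48 h, 1 rose and 0 fell in KO at 24 h, and 2 rose and 1 fell in KO at 48 h. In WT at 48 h the GABA synthesis genes Gad2 and Gad1 rose by 1.31 and 0.76, the factors Isl1, Lhx8 and Lhx6 fell by 0.51, 0.40 and 0.20, and the list's median was -0.20. Of 5 vascular and meningeal genes, 1 fell in WT at 24 h, 2 in WT at 48 h, 0 in KO at 24 h and 1 in KO at 48 h, and 0 rose. All 3 tested erythroid genes fell at 48 h in each genotype. Of all tested genes 6.4% and 15.7% fell in WT at 24 h and 48 h, and 5.55% and 9.47% in KO. The cell cycle counts at 24 h were near these shares in both genotypes. A count of 1 in such a short list is not read as a result about that list. The part of these marker changes in the results for the 7 genes was not tested.

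Ordered by group mean, each of the 7 genes had its 3 WT groups above its 3 KO groups. WT basal was highest for 6 of them, and for Tbr1 the order was WT 48 h, WT 24 h and WT basal with overlap between each pair of neighbours. For Eomes and Fezf2 the WT basal dishes stood clear of the next group, as they did for Neurod2. Of all tested genes, 780 did not overlap between WT basal and WT 24 h dishes, and 1462 between WT basal and WT 48 h dishes. For Neurog2 every group overlapped its neighbour in the order, so that its decline across the 6 groups had no gap. KO 24 h was the lowest group of Eomes, Neurod6, Tbr1 and Fezf2, and KO 48 h of Neurog2, Neurod1 and Neurod2. Only for Neurod6 did the lowest group stand apart from the one above it, with KO 24 h values up to 1.68 and KO 48 h values from 1.76. Between KO 24 h and KO 48 h dishes 639 of all tested genes did not overlap.

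The genes most like each member over the 30 arrays were found by Pearson's r, which is a description, since all arrays share the step between genotypes. Fezf2 was most like Nfix (r = 0.98), Bcl11a (0.96) and Tfap2c (0.96), and Neurod6 most like Nfix (0.96), Mmd2 (0.96) and Zbtb18 (0.96). Eomes was most like Dennd11 (0.95), Fezf2 (0.95) and Nfix (0.95), and Neurog2 most like Eomes (0.94), Trim28 (0.93) and Tfap2c (0.92). Neurod1 was most like Tcf4 (0.95), Bcl11a (0.94) and Meis2 (0.93), Tbr1 like Dync1i1 (0.91), Gpm6b (0.89) and Parp1 (0.88), and Neurod2 like Wnt7b (0.91), Phc2 (0.84) and Slc25a29 (0.84). Nfix, a nuclear factor I gene, was among the first 3 of Eomes, Neurod6 and Fezf2.

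Within groups the 7 genes did not all vary together. After each group's mean was subtracted, Neurog2 and Eomes correlated at 0.74 over the 30 arrays, Neurog2 and Fezf2 at 0.62 and Eomes and Fezf2 at 0.53. Tbr1 had values between -0.38 (with Neurod2) and 0.073 (with Neurod6). WT basal dish 4 was the highest of its group for 6 of the 9 probe sets, WT 24 h dish 2 for 7 and WT 48 h dish 1 for 5, while WT basal dish 2 was the lowest for 6.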

How the data were processed

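RNA of 30 dishes was amplified repeatedly, which favours the 3' end of transcripts, and hybridized to 30 arrays. The deposited values are intensity signals that the authors computed with MAS5, per the submitters' processing notes and the series' design text; its version is not given in the sources used here. Array medians differed, so each array was divided by its median, floored at 0.1 and converted to log2. The 20393 probe sets with 1 symbol gave 12394 genes, each by its brightest probe set, and the upper 60% by mean signal (7436 genes, all 7 members) were tested. In limma (version 3.58.1, R 4.3.3), the 6 group means were estimated from the 30 arrays together, with eBayes moderation and an intensity trend, for 11 two-sided comparisons, each adjusted by Benjamini-Hochberg. The procedure was tested on simulated data. No 2 arrays held identical values. Members, lists and tests were chosen with earlier results of these data known. Named are all members, Xbp1, up to 4 called genes with the largest change per list, and the 3 genes most like each member. Other names (Slc17a6, Pax6 and Hes1 in basal dishes, Otx2, and the genes below the array median) were chosen after their values were seen. Alternatives were other normalizations, a pseudocount of 0.5, other filters and probe set rules, fewer arrays, the Gapdh ratio and the replicate number as terms, and leaving out each dish. An array gives no molecule count, so its number limits the precision.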

Additional observations from a re-analysis of the deposited data

Results flagged for a closer look

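Of 54 sets of 5 dishes (9 probe sets in 6 groups), 6 held a dish far from the other 4, with a gap to its nearest neighbour above 0.71 of the whole range of the set. Chance gives about 1 such set in 20. Neurog2 read 2.59 in WT basal dish 4, against 1.98 to 2.14 in the others. The dimmer Neurod1 probe set read 3.26 in the same dish, against 2.33 to 2.54. Neurod2 read 1.92 in WT basal dish 1, against 1.08 to 1.28, and Neurod6 read 3.19 in WT basal dish 2, against 3.40 to 3.47. The brighter Eomes probe set read 2.50 in WT 24 h dish 2, against 2.12 to 2.21. The dimmer Eomes probe set read 0.57 in KO basal dish 5, against 0.73 to 0.78.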

How the results depend on the processing

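The genotype difference kept its call for all 7 genes in all 138 values recomputed for basal dishes (-1.52 to -0.64) and all 138 at 24 h (-1.47 to -0.66). At 48 h it was kept in 150 of 152 (-2.09 to -0.36), the exceptions being Neurog2 and Tbr1 with part of the 48 h dishes, as given above. No called value changed sign under any alternative run. The labels do not say that a replicate number marks a shared batch. Correlations of deviations from the group means were -0.17 to 0.28 (median 0.034) for dishes of the same number and -0.42 to 0.27 (median -0.014) for others. Not every array correlated best with its own number, but 15 of 30 did. Whether dishes of a number share something was not tested. With replicate number as a block, all 43 member calls were kept and Tbr1 in WT at 48 h was added (0.41, adjusted p = 0.0441), so that 6 members were called there against 5. Over all genes the block raised the count of calls in each of the 11 comparisons, for example from 1074 to 1273 in WT at 24 h and from 7 to 11 for the response difference at 24 h.

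The BDNF counts moved more. With signals as deposited, the median of all genes shifted by 0.34 (WT) and 0.29 (KO) at 48 h, and 1 member was called in WT at 48 h, 0 in KO at 24 h and 3 in KO at 48 h. The Gapdh ratio as a covariate gave 3 in WT at 48 h and 0 between 24 h and 48 h in each genotype. With 48 h dishes 1 and 2 alone, 2 were called in WT at 48 h and 0 between 24 h and 48 h. With dishes 3 to 5 alone, 2 were called in KO at 48 h. Between 24 h and 48 h in WT, 1 was called with quantile normalization, with 75th percentile scaling and with only the arrays compared, and 0 without a filter. In KO over that interval 1 of the 5 members tested was called in the upper 40% of genes, which leaves fewer genes. Leaving out 1 dish gave 0 to 3 calls between 24 h and 48 h in WT, 3 to 5 in KO at 48 h and 1 to 3 between 24 h and 48 h in KO.

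Changes of sign affected values that were not called. With signals as deposited, Neurod6 was 0.14 in WT and 0.24 in KO at 48 h, and between 24 h and 48 h Eomes was 0.26 and Neurod1 0.056 in WT, and Neurog2 0.091 in KO. The response difference was 0.031 for Neurog2 and 0.037 for Neurod6 at 24 h, and -0.00027 for Fezf2 at 48 h. With the Gapdh ratio, Tbr1 was -0.041 between 24 h and 48 h in WT and the Neurod6 response difference 0.0079 at 24 h, which was 0.013 with the pseudocount. With 48 h dishes 1 and 2 alone, Eomes was 0.019 and Neurod2 0.038 between 24 h and 48 h in WT, and Eomes -0.14 and Fezf2 -0.084 in KO. The 48 h response differences were then -0.085 for Neurog2, -0.12 for Eomes, -0.049 for Neurod6, 0.24 for Tbr1 and -0.18 for Fezf2. With dishes 3 to 5 alone, Neurod6 was 0.088 in KO at 48 h, and Neurog2 0.025 between 24 h and 48 h in KO. With the mean of probe sets, Eomes was -0.10 between 24 h and 48 h in KO.

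Leaving out 1 dish, the range for 24 h to 48 h was -0.089 to 0.012 for Eomes in WT and -0.15 to 0.0073 for Neurog2 in KO, and that for Neurod6 at 48 h in KO was -0.083 to 0.052. Response differences at 24 h ranged from -0.15 to 0.026 for Neurog2, -0.060 to 0.11 for Eomes and -0.091 to 0.034 for Neurod6. At 48 h they ranged from -0.21 to 0.00057 for Tbr1 and -0.0033 to 0.14 for Fezf2. The cause of these changes was not tested.

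Over all genes, the counts of called genes moved by more than 1.5 times with signals as deposited, for example from 2073 to 841 between genotypes in basal dishes and from 1074 to 273 in WT at 24 h. With the Gapdh ratio they went from 2693 to 1470 in WT and from 2147 to 992 in KO at 48 h, and between 24 h and 48 h from 1034 to 294 and from 732 to 55. With 48 h dishes 1 and 2 alone the genotype count at 48 h went from 1791 to 911, and with dishes 3 to 5 alone to 1178. The 7 and 10 genes called for response differences were 0 and 0 with signals as deposited, 13 and 10 with quantile normalization, and 4 and 4 with the mean of probe sets.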
